A study of Homo sapiens with 10 samples.

Results

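Transfer RNAs for aspartate, histidine and tyrosine were read in 10 iCLIP libraries of the pseudouridine synthase PUS7. They were taken as every row of the 10 tRNA tables whose name gives the isotype Asp, His or Tyr, without an nm or nmt prefix. That gave 43 of 631 tRNA rows, of which 16 were Asp, 10 were His and 17 were Tyr. The Asp rows all had the anticodon GTC and the His rows GTG. Of the Tyr rows, 16 had the anticodon GTA and 1 had ATA.

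The libraries came from PUS7 knockout cells of 2 human lines, 293T (a transformed embryonic kidney line) and H9 (a human embryonic stem cell line). The FLAG-PUS7 libraries were from knockout cells that had been given FLAG-tagged PUS7, with 3 from 293T and 2 from H9. The knockout libraries were from the same PUS7 knockout background with no tagged protein, again 3 from 293T and 2 from H9, and were taken through an identical pull-down with anti-FLAG beads. None of the 10 libraries was from cells with an unaltered PUS7 gene, and all groups share the knockout. The sources used here do not give how the knockout was made, whether each line was 1 clone or what promoter drove FLAG-PUS7. According to the labels' protocols, RNA was crosslinked to protein in the cells by 254 nm UV light, and what came down on the beads was sequenced for 50 cycles.

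Asp, His and Tyr tRNAs, together with Asn, are the tRNAs in which queuosine replaces the guanosine at the wobble position, the first base of the anticodon. In animals this base is taken up from diet and gut bacteria as queuine, and it is further glycosylated in Asp and Tyr tRNAs. PUS7 converts uridine to pseudouridine within a short sequence motif, and many of its tRNA targets carry the change in the D arm. In budding yeast, Pus7 also modifies the anticodon of the tyrosine tRNA precursor. His tRNA is set apart by an extra guanosine added at its 5′ end, and the genes of Tyr-GTA tRNA carry an intron that is spliced out of the precursor.

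The tRNA tables the authors deposited hold level numbers in place of counts. Each table used every whole number from 1 to its maximum, and there were 335 to 414 levels with FLAG-PUS7 and 6 to 102 in the knockouts. This is what remains when text is replaced by its alphabetical rank, so that neither amounts nor sequencing depth can be given. A row was read as detected when its level lay above the run of levels that stood for no reads. The next level up is called the lowest level below, and it would mostly stand for 1 read if the text held whole read numbers. The text behind the levels also had a width, and rows fell into width classes numbered from 1 for the narrowest. What set the width of a row is not stated. The classes were read from the H9 knockout replicate 1 table, in which every tRNA row lay at the lowest level of its class. Its 0 detected rows therefore follow from the way the levels were read, and an empty library cannot be told apart from an unfilled table. The main results that rest on it are given with and without it, and leaving it out still takes the width classes from it. FLAG-PUS7 libraries detected 458 to 479 of the 631 rows. The knockout libraries detected 133 to 232 in 293T, and 0 and 232 in H9.

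The genes behind the rows differed in their copies and their place in the genome. Rows of a tRNA are named with a number for the mature sequence and a second number for the gene copy. The 16 Asp rows had 6 sequence numbers, and 11 of these rows were copies of number 2. The 10 His rows had 2 numbers, with 9 copies of number 1. The 16 Tyr-GTA rows were more varied, with 12 numbers, and the largest group was the 5 copies of number 5. Of the 43 rows, 35 matched a tRNA gene by symbol in the RefSeq annotation of GRCh38.p14, 2 matched a tRNA pseudogene (Tyr-GTA 11-1 and 12-1) and 6 matched no symbol there (Asp-GTC 4-1, 5-1 and 6-1, His-GTG 2-1, Tyr-GTA 9-1 and 10-1).

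The matched Asp and His genes were all 72 bases long, whereas the 13 matched Tyr genes were 89 to 94 bases long, a span that includes the intron. The 13 Asp genes lay on chromosomes 1, 12, 6 and 17. On chromosome 1, 5 of them stood between positions 161440825 and 161470486, with starts 7381 to 7418 bases apart. The 9 His genes lay on chromosomes 1, 15, 6 and 9, and the Tyr genes on chromosomes 14, 6, 2 and 8. Reads from copies with the same mature sequence cannot be assigned to 1 copy with certainty, and the sources used here do not say how the authors placed such reads. The copies of Asp number 2 and of His number 1 are therefore not independent of each other.

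All 3 isotypes were detected in a larger share of their rows with FLAG-PUS7 than in the knockout, and the knockout libraries separated them. The knockouts held most Asp rows, a varying part of the His rows and few or no Tyr rows. The Asp share rests largely on the 11 copies of number 2. When each sequence number counted once, the FLAG-PUS7 libraries held 83.3% of Asp-GTC, against 50% in each 293T knockout and 0% and 66.7% in the H9 knockouts. His-GTG was then at 100% in the FLAG-PUS7 libraries, against 44.4%, 22.2% and 27.8% in the 293T knockouts and 0% and 50% in the H9 knockouts. Tyr-GTA was at 66.7% in the FLAG-PUS7 libraries, against 21.7%, 16.7% and 8.33% in the 293T knockouts and 0% in both H9 knockouts. Asp was detected in 15 of 16 rows in each of the 5 FLAG-PUS7 libraries, against 13, 13 and 13 rows in the 293T knockouts and 0 and 14 in the H9 knockouts. His was detected in all 10 rows in each FLAG-PUS7 library, against 8, 4 and 5 rows in the 293T knockouts and 0 and 9 in the H9 knockouts. Tyr was detected in 12, 12 and 12 of 17 rows in 293T FLAG-PUS7 and in 13 and 12 in H9 FLAG-PUS7, against 5, 2 and 1 rows in the 293T knockouts and 0 and 0 in the H9 knockouts. Within each line, every FLAG-PUS7 library held more rows of each isotype than every knockout library. The same held for 75.4% of the 57 anticodon families that had a row detected in any library.

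**Figure D1:**
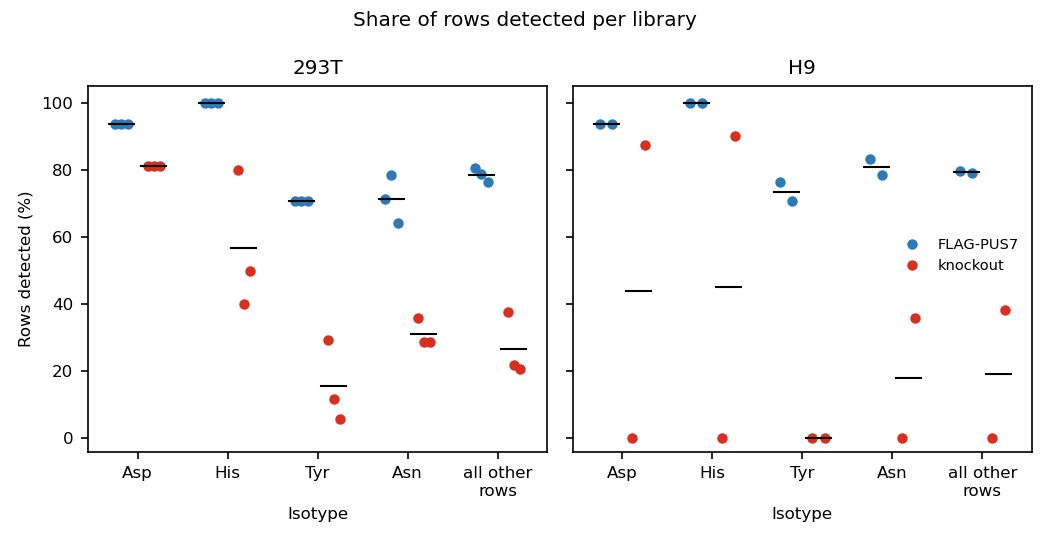
Share of rows detected (%) in each library, by isotype, for 293T (left panel) and H9 (right panel). Points are libraries, blue for FLAG-PUS7 and red for the knockout, and bars are group means. "All other rows" are the 547 rows of every other isotype, Asn included. The knockout points lie at 81.2% for Asp in 293T, whereas those for Tyr lie at 0% in both H9 knockouts.

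As anticodon families, Asp-GTC, His-GTG and Tyr-GTA each passed the test, and Tyr-ATA did not. The test was an exact two-sided permutation test in which FLAG-PUS7 and knockout labels were exchanged inside each line (120 assignments), with both lines weighted equally and p-values adjusted over 57 families by the Benjamini-Hochberg method. Of the 57 families, 78.9% passed in the same direction and 0 were lower with FLAG-PUS7, so that passing does not set these families apart. Tyr-GTA averaged 75% of rows in FLAG-PUS7 libraries of both lines, against 16.7% ± 13.01 (SD, n = 3) in the 293T knockout and 0% in both H9 knockouts. That makes 66.7 percentage points (adjusted p = 0.0221, exact permutation test), the 17th largest of 57.

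His-GTG averaged 100% of rows in FLAG-PUS7 libraries of both lines, against 56.7% ± 20.8 (SD, n = 3) in the 293T knockout and 45% ± 63.6 (SD, n = 2) in the H9 knockout. Its 49.2 points (adjusted p = 0.0221, exact permutation test) ranked 34th. Asp-GTC averaged 93.8% in FLAG-PUS7 libraries of both lines, against 81.2% in each 293T knockout library and 43.8% ± 61.9 (SD, n = 2) in the H9 knockout. Its 31.2 points (adjusted p = 0.0221, exact permutation test) ranked 51st. The median over all 57 families was 52.5 points, above the values for His and Asp and below that for Tyr-GTA. The adjusted p of 0.0221 corresponds to a raw p of 0.0167, the smallest these 10 libraries can give.

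The size of the Asp and His differences hung on H9 knockout replicate 1, and that of Tyr-GTA did not. Without that library the differences were 9.38 points for Asp-GTC, 26.7 for His-GTG and 66.7 for Tyr-GTA, and all 3 kept an adjusted p of 0.0232 in that exact permutation test. Without H9 knockout replicate 2 they were 53.1, 71.7 and 66.7 points. When either of the H9 FLAG-PUS7 libraries was dropped, the differences for Asp-GTC and His-GTG stayed at 31.2 and 49.2 points and the number of families that passed fell to 23 of 57. The call ended for Asp-GTC (adjusted p = 0.384 both times) and for His-GTG (adjusted p = 0.218 and 0.227), while Tyr-GTA kept it (adjusted p = 0.0406 and 0.0413, exact permutation tests).

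Over only those rows that matched a RefSeq tRNA gene, the Tyr-GTA value was 88.9 points, with an adjusted p of 0.0247 in the exact permutation test. Asp-GTC had no difference left outside H9 knockout replicate 1, since each FLAG-PUS7 library and the 4 other knockout libraries detected all 13 matched rows (25 points, exact permutation p = 1). His-GTG differed by 43.5 points with an adjusted p of 0.0645 in the same test, which does not pass. In H9, all 9 matched His rows were detected in both FLAG-PUS7 libraries and in knockout replicate 2. The H9 part of the His difference thus came from H9 knockout replicate 1 alone. The 12.5 points by which Asp-GTC differed in 293T thus came from Asp-GTC 4-1 and 5-1, neither of which matched a RefSeq gene.

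Tyr-ATA has a single row, which was detected in H9 FLAG-PUS7 replicate 1 and in no other library (25 points, exact permutation p = 1). The FLAG-PUS7 minus knockout difference was unequal between H9 and 293T by 37.5 points for Asp-GTC, 11.7 for His-GTG and 16.7 for Tyr-GTA, H9 minus 293T. None of these passed a permutation of the line labels within genotype over 100 assignments (adjusted p = 1 for each), and 0% of the 57 families did, with 0 at an unadjusted p under 0.05. With H9 knockout replicate 1 left out, the Asp-GTC value was -6.25 points and the His-GTG value -33.3 points, so that the direction turned.

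Row by row, the 3 isotypes held rows of opposite kinds. In all 5 FLAG-PUS7 libraries 37 of the 43 rows were detected, with 15 Asp, 10 His and 12 Tyr rows. Of those 37, 7 were in no knockout library, against 30.1% of the 425 rows of the whole table that were in all 5 FLAG-PUS7 libraries. These were 5 Tyr rows (Tyr-GTA 1-1, 3-1, 5-2, 5-3 and 7-1), 1 Asp row (Asp-GTC 4-1) and 1 His row (His-GTG 2-1). At the other end, 17 of the 37 were in all 4 knockout libraries that held any tRNA row, against 16.7% of the same 425 rows. For the 24 Asn rows in all 5 FLAG-PUS7 libraries the number was 7. The 17 rows of the 3 isotypes comprised 13 Asp rows, 4 His rows (His-GTG 1-3, 1-5, 1-7 and 1-9) and 0 Tyr rows. The 13 Asp rows were all 11 copies of number 2 together with Asp-GTC 1-1 and 3-1.

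**Figure D2:**
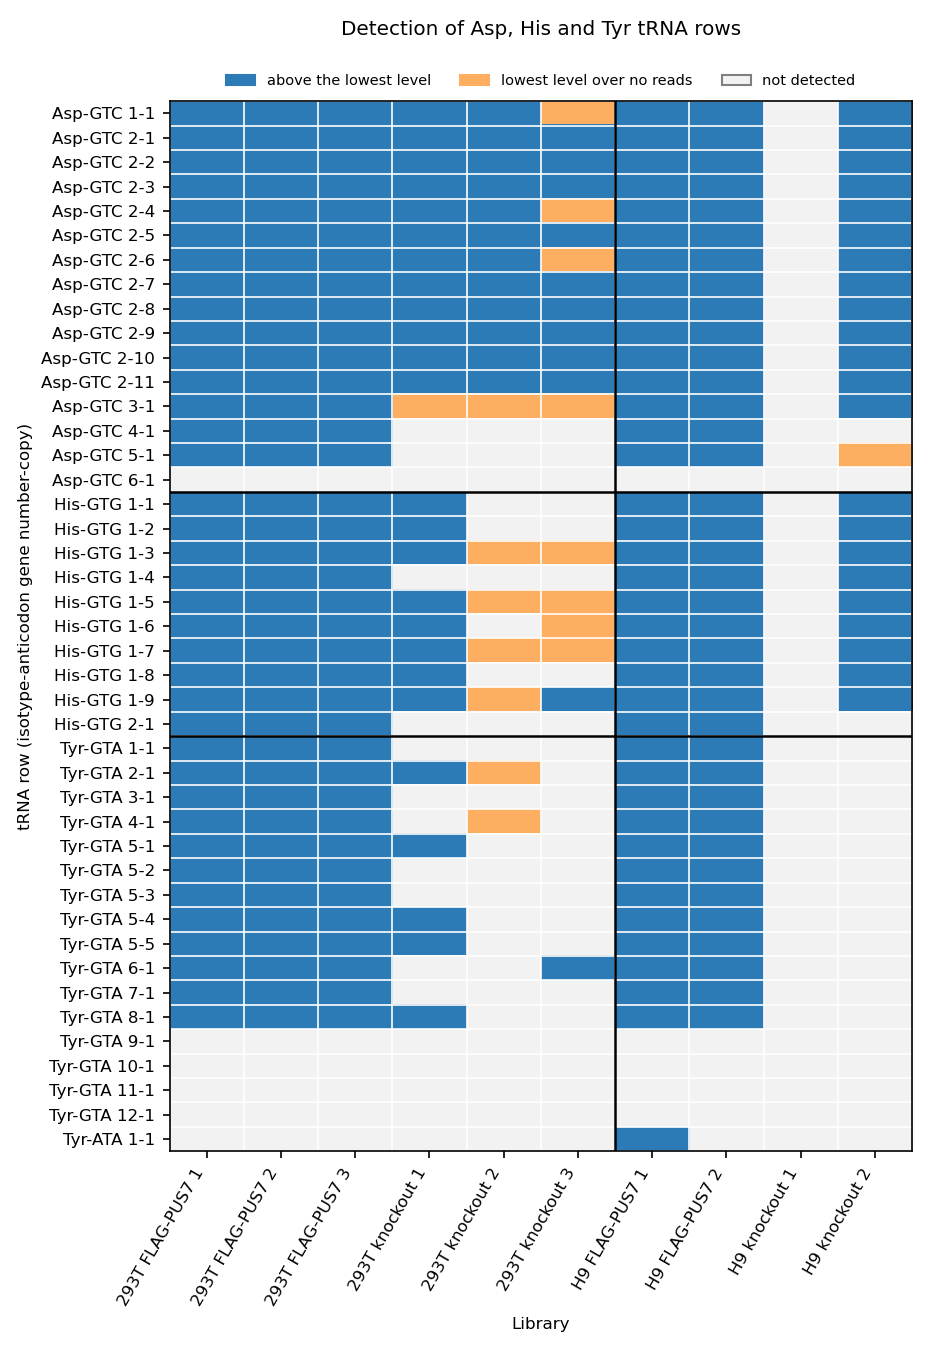
Detection of each of the 43 rows (vertical axis, named by isotype, anticodon, sequence number and copy) in each of the 10 libraries (horizontal axis). Blue marks a level above the lowest, orange the lowest level over no reads and grey no detection. Of the 16 Asp rows, 13 are detected in each 293T knockout, 14 in H9 knockout replicate 2 and 0 in H9 knockout replicate 1. The Tyr block is empty in both H9 knockouts.

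The Asp rows of the knockouts lay mostly above the lowest level. Asp-GTC 3-1 stood lower, at the lowest level in all 3 of the 293T knockouts and above it in H9 knockout replicate 2. Asp-GTC 1-1, 2-4 and 2-6 were at the lowest level in 293T knockout replicate 3. Asp-GTC 5-1 was in all 5 FLAG-PUS7 libraries and, at the lowest level, in H9 knockout replicate 2. Asp-GTC 6-1 was in no library.

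Among the His rows, His-GTG 1-3, 1-5 and 1-7 were above the lowest level in 293T knockout replicate 1 and in H9 knockout replicate 2, and at the lowest level in the other 2 knockouts of 293T. His-GTG 1-4 was in 1 knockout library, H9 knockout replicate 2. His-GTG 1-1, 1-2 and 1-8 were in 2 knockout libraries and His-GTG 1-6 in 3. His-GTG 2-1, the row of the second sequence number, was above the lowest level in each FLAG-PUS7 library and in no knockout library.

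Among the Tyr rows, 6 were in 1 knockout library each (Tyr-GTA 4-1, 5-1, 5-4, 5-5, 6-1 and 8-1) and Tyr-GTA 2-1 was in 2. All of these detections were in 293T knockouts. The 5 copies of number 5 did not move together in 293T knockout replicate 1, where 5-1, 5-4 and 5-5 were detected and 5-2 and 5-3 were not. Tyr-GTA 9-1, 10-1, 11-1 and 12-1 were in no library, and they comprise both pseudogene rows and both unmatched Tyr rows.

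No single row passed the test over the whole table. Of the 43 rows, 38 were detected in at least 1 library and entered the exact permutation test with 513 rows in all, and 0 of them passed (lowest adjusted p = 0.0668) and 0% of all rows did. At an unadjusted p under 0.05 there were 7 rows of 38, the same 7 that were in all FLAG-PUS7 and no knockout libraries, against 25% of the 513 rows.

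Compared with each other, the isotypes had FLAG-PUS7 minus knockout changes of unequal size, but with all 10 libraries no pair passed. The FLAG-PUS7 minus knockout change was 33.0 points larger for Tyr than for Asp rows (exact permutation test over libraries, p = 0.1, adjusted over the 3 pairs p = 0.15). It was 15.05 points larger for Tyr than for His (p = 0.683) and 17.9 points larger for His than for Asp (p = 0.0167, adjusted p = 0.05, which is not under the threshold, exact permutation tests). Without H9 knockout replicate 1, Tyr exceeded Asp by 54.8 points and His exceeded Asp by 17.3 points, each at an adjusted p of 0.025 in the same exact test. Tyr exceeded His by 37.5 points there (adjusted p = 0.0667, exact permutation test). Without H9 knockout replicate 2, the 1 H9 knockout library left had no detected rows, and the Tyr values were 11.1 points above Asp and -7.45 points against His. Tyr minus His was 3.68 points when only levels above the lowest counted and 40.5 points over rows matched to a RefSeq tRNA gene. Counting each sequence number once put His-GTG (71.8 points) above Tyr-GTA (58.9 points), the opposite order, and this pair was not tested in that form. These values include H9 knockout replicate 1, where both families were at 0%. In H9 knockout replicate 2, His-GTG was at 50% and Tyr-GTA at 0%. The order without replicate 1 was not computed in that form.

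Width class differed between the isotypes and moved with detection. Of the Asp rows 11 of 16 were in class 4, the widest class of 4 that held these rows, as were 9 of 10 His rows and 3 of 17 Tyr rows. Class 3 held 2 Asp, 0 His and 7 Tyr rows. Among the 547 other rows, FLAG-PUS7 libraries of 293T detected 43.2% ± 5.74 of class 1 and 97.8% ± 0.466 of class 2 (SD, n = 3), and all of classes 3 and 4. In class 4 every row of the table was detected in all 5 FLAG-PUS7 libraries, among the 3 isotypes and among the 63 other rows alike. The comparison in class 4 therefore rested on the knockout libraries alone. The simulated data used to test the script took the width from the largest value of a row. If the deposited text did the same, the class could itself depend on the FLAG-PUS7 libraries. Full detection in class 4 would then follow from the class, and comparisons within classes would not be independent of detection. This was not tested.

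Within class 4, the Asp rows were all copies of number 2, the His rows copies of number 1 and the Tyr rows copies of number 5. Each isotype was thus represented by 1 sequence number, whose copies are not independent of each other. The order of these rows in the knockouts was Asp, His and Tyr, with Asp and His level in H9 knockout replicate 2. Asp held 11, 11 and 11 of 11 rows in the 293T knockouts and 11 in H9 knockout replicate 2. His held 8, 4 and 5 of 9 rows in the 293T knockouts and 9 in H9 knockout replicate 2. Tyr held 2, 0 and 0 of 3 rows in the 293T knockouts and 0 in H9 knockout replicate 2. The other rows of class 4 held 62, 42 and 45 of 63 in the 293T knockouts and 56 in H9 knockout replicate 2, a share between those of Asp and Tyr in each library.

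The change within class 4 was 63.9 points larger for Tyr than for Asp and 45.4 points larger for Tyr than for His (exact permutation p = 0.05, adjusted p = 0.075 for each). It was 18.5 points larger for His than for Asp (exact permutation p = 0.1). Leaving out H9 knockout replicate 1, the Tyr values were 88.9 points above Asp and 70.4 above His. Each had an adjusted p of 0.025 in the exact permutation test. Both values rested on 3 Tyr rows, and each isotype in class 4 was copies of 1 sequence number. In class 3 Tyr exceeded Asp by 60.7 points (exact permutation p = 0.05). The narrow classes held too few rows to separate the isotypes. Class 1, with 1 Asp and 5 Tyr rows, gave 5 points for Tyr minus Asp. Class 2, with 2 Asp, 1 His and 2 Tyr rows, gave 12.5 points for Tyr minus Asp and 0 for Tyr minus His (exact permutation p = 1 for each value of both classes). Every class 2 row of the 3 isotypes was detected in all 5 FLAG-PUS7 libraries and none in a 293T knockout. Of the 124 other rows of class 2, the 293T FLAG-PUS7 libraries held 121, 121 and 122 and those of H9 held 122 and 122. The 293T knockouts held 24, 19 and 11 of these 124, so that few detections set class 2 as a whole. Counting only levels above the lowest, the class 4 rows of 293T knockout replicate 2 were 11 of 11 for Asp, 0 of 9 for His and 0 of 3 for Tyr. In 293T knockout replicate 3 they were 9 of 11 for Asp, 1 of 9 for His and 0 of 3 for Tyr. In both libraries most Asp rows thus stood above the lowest level and most His rows did not. In H9 knockout replicate 2 all 9 His and all 11 Asp rows were above it.

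**Figure D3:**
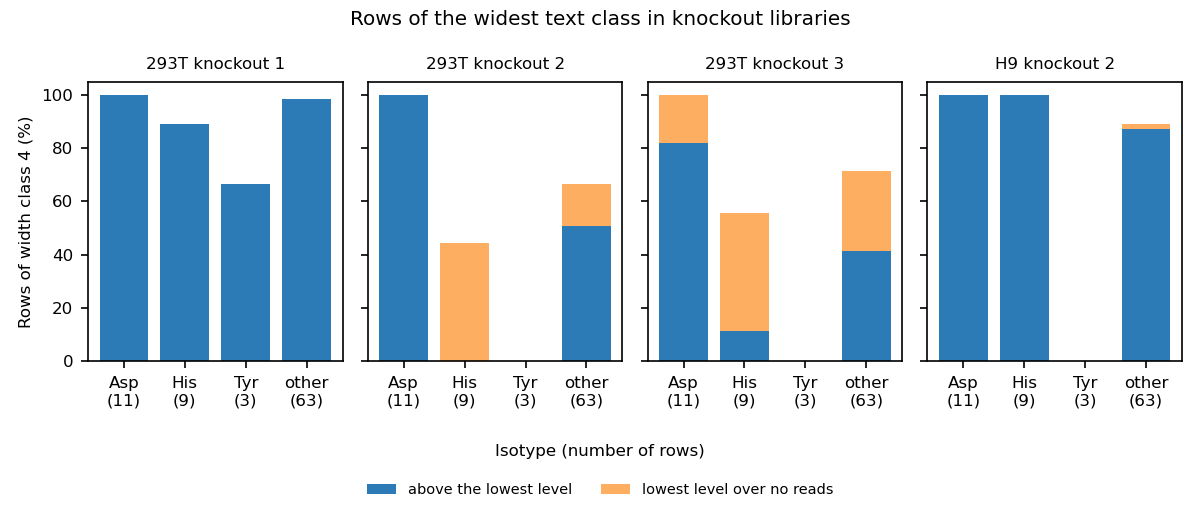
Rows of width class 4 in the 4 knockout libraries with any tRNA row, as a percentage of the class 4 rows of each isotype (number of rows in brackets). Blue is the share above the lowest level and orange the share at the lowest level over no reads. The Asp, His and Tyr rows shown are copies of 1 sequence number per isotype. Asp reaches 100% in all 4 libraries, His does so in H9 knockout replicate 2 only, and Tyr is at 0% in 3 of 4.

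H9 knockout replicate 2 and 293T knockout replicate 1 each detected 232 rows of the whole table, yet differed in the Tyr rows they held. H9 knockout replicate 2 held 14 of 16 Asp rows, 9 of 10 His rows and 0 of 17 Tyr rows. In 293T knockout replicate 1 there were 13 Asp, 8 His and 5 Tyr rows. In width class 3, where most detectable Tyr rows lay, H9 knockout replicate 2 held 0 of 7 Tyr rows and 109 of the 157 other rows, and 293T knockout replicate 1 held 3 of 7 Tyr rows and 116 of the 157. With 1 such library in H9, this was not tested.

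Set against the rest of the table, the Asp rows had a smaller FLAG-PUS7 minus knockout difference and the Tyr rows a larger one, without passing the test. The change of Asp was 24.8 points smaller than that of the 547 remaining rows that carry no nm or nmt prefix, Asn among them (-24.8 points, exact permutation p = 0.05, adjusted over 6 comparisons p = 0.2). Against the 42 Asn rows, the fourth isotype with queuosine, it was -20.5 points (exact permutation p = 0.0667, adjusted p = 0.2). Tyr was 8.17 points above the other rows and 12.4 points above Asn, and His was at -6.88 points against the other rows and -2.62 against Asn. None of these 4 passed either (exact permutation, adjusted p from 0.333 to 0.933). Without H9 knockout replicate 1 the Asp values were -37.1 and -33.5 points and the Tyr values 17.7 and 21.4 points against the other rows and Asn, each at an adjusted p of 0.05, which is not under the threshold (exact permutation test). Without H9 knockout replicate 2 the Asp values shrank to -12.5 and -7.59 points, Tyr stood at -1.38 and 3.50 points and His at 6.07 and 10.95 points, so that Tyr against the other rows and His against both turned direction. The Asn rows themselves were detected in 30, 33 and 27 of 42 rows in 293T FLAG-PUS7 and 35 and 33 in H9 FLAG-PUS7, against 15, 12 and 12 in the 293T knockouts and 0 and 15 in the H9 knockouts.

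Comparing only rows of the same width classes, weighted as in each isotype, kept Asp below the rest at -15.5 points and below Asn at -12.0 points, with an adjusted p of 0.05 that is not under the threshold (exact permutation test). In the same comparison His stood 6.40 points above the other rows and 13.6 above Asn, so that its direction turned, at an adjusted p of 0.1 for both in the exact permutation test. Tyr stood 10.8 points above the other rows and 4.98 above Asn (adjusted p = 0.56 and 0.733, exact permutation test). Without H9 knockout replicate 1, an exclusion combined with the classes after the data were seen, 4 of the 6 comparisons passed at an adjusted p of 0.025 by exact permutation. These were Asp against the other rows (-18.8 points) and Asn (-14.8 points), His against Asn (13.99 points) and Tyr against the other rows (22.9 points).

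A further comparison, chosen after the data were seen, kept only rows matched to a RefSeq tRNA gene and used the same width classes. Tyr then stood 24.8 points above the other rows and 29.5 above Asn, and Asp at -16.5 and -11.8 points (exact permutation test, adjusted p = 0.075 for all 4). When H9 knockout replicate 1 was left out, Tyr stood 40.8 and 45.1 points above and Asp at -20.1 and -13.7 points, each at an adjusted p of 0.025 in the exact permutation test. His did not pass with these rows in either form.

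The level numbers of copies that share a sequence number lay close together in H9 FLAG-PUS7. Level numbers are alphabetical and show likeness of the text, not size. The 11 copies of Asp number 2 took levels 62 to 75 of 412 in H9 FLAG-PUS7 replicate 1 and levels 103 to 114 of 414 in replicate 2. The 9 copies of His number 1 took levels 95 to 104 and 91 to 101 in these 2 libraries. In 293T FLAG-PUS7 the Asp copies were spread over 27 to 35 levels of 335 to 353. The 11 Asp copies had 11, 11 and 8 distinct levels in 293T FLAG-PUS7 and 11 and 11 in H9 FLAG-PUS7, against 6, 4 and 5 in the 293T knockouts and 7 in H9 knockout replicate 2. Within the span of the Asp copies lay 3 and 1 rows of other tRNAs or numbers in the H9 FLAG-PUS7 libraries and 20 to 32 in those of 293T.

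A second readout came from the peak lists, which the authors deposited for the 5 FLAG-PUS7 libraries and which carry a signal and a p per peak. These are the authors' values and are used only to describe peaks within a list. Peaks start and end on a 200-base grid, coordinates here are on hg38 with RefSeq genes on GRCh38.p14, and the submitters' name for them marks them as without tRNA. The RefSeq table used gives no strand, so that whether a peak lay on the strand of the gene was not determined. They held 120, 85 and 39 peaks in 293T and 1605 and 199 in H9, with median signals of 20, 28, 40, 3 and 11, so that signals are not comparable between libraries. Peak lists were at hand for the FLAG-PUS7 libraries only, so that the peaks had no knockout list to be compared with, and no test was made.

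His genes had peaks on or beside them, and Asp genes had none on them. In each 293T list 11.1% of His genes shared a base with a peak. For the 366 tRNA genes outside the 3 isotypes and Asn, the share was 11.7%, 9.02% and 3.83%. For Asn genes it was 27.3%, 31.8% and 13.6%. In H9 the His shares were 44.4% and 33.3%, against 26.2% and 11.7% of the 366 and 54.5% and 40.9% of Asn genes. TRH-GTG1-1, on chromosome 1 from 146038044 to 146038115, lay wholly inside a plus-strand peak from 146038001 to 146038200. The peak's signal reached 47, 104 and 44 in 293T and 33 and 30 in H9, above the list's median in every library. TRH-GTG1-5, on chromosome 6 from 27158127 to 27158198, had a plus-strand peak that began 3 bases past its higher coordinate, with a signal of 33, 53 and 31 in 293T and 38 and 30 in H9. These 2 were the His genes with a peak within 200 bases in all 5 lists, although in 293T FLAG-PUS7 replicate 3 the TRH-GTG1-5 signal of 31 was under the median of 40.

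Other His genes had peaks in part of the lists. TRH-GTG1-7, on chromosome 15 from 45198606 to 45198677, had a minus-strand peak 6 bases away with a signal of 19 and 17 in 293T FLAG-PUS7 replicates 1 and 2 and of 55 and 28 in H9. The 293T signals were under their lists' medians of 20 and 28, and the H9 signals were above theirs. TRH-GTG1-8, on the same chromosome from 45200413 to 45200484, had one 13 bases away with a signal of 16 in 293T FLAG-PUS7 replicate 2 and of 40 and 26 in H9. Its 293T signal was under the median of 28, and its H9 signals were above their medians. In H9 only, TRH-GTG1-3 shared 36 bases with a peak (signal 18 and 27) and TRH-GTG1-4 shared 67 bases with one (signal 19 and 19), both on chromosome 1. TRH-GTG1-9 shared 22 bases with a peak of signal 4 in H9 FLAG-PUS7 replicate 1.

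Tyr and Asp genes had few peaks. TRY-GTA5-2 had a peak 125 bases past its higher coordinate, with a signal of 18 and 37 in 293T FLAG-PUS7 replicates 1 and 2 and of 16 and 7 in H9. The 18 was under its list's median of 20 and the 7 under that of 11, while the 37 and the 16 were above theirs. TRY-GTA5-1 shared 59 bases with a peak of signal 3 in H9 FLAG-PUS7 replicate 1. TRY-GTA3-1 had a peak of signal 6 at 9 bases in that library. The 2 Asp genes with a peak within 200 bases, TRD-GTC2-10 and TRD-GTC3-1, had theirs in that library too, at 47 and 57 bases and with signals of 6 and 3. This list was the longest of the 5, with a median signal of 3.

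**Figure D4:**
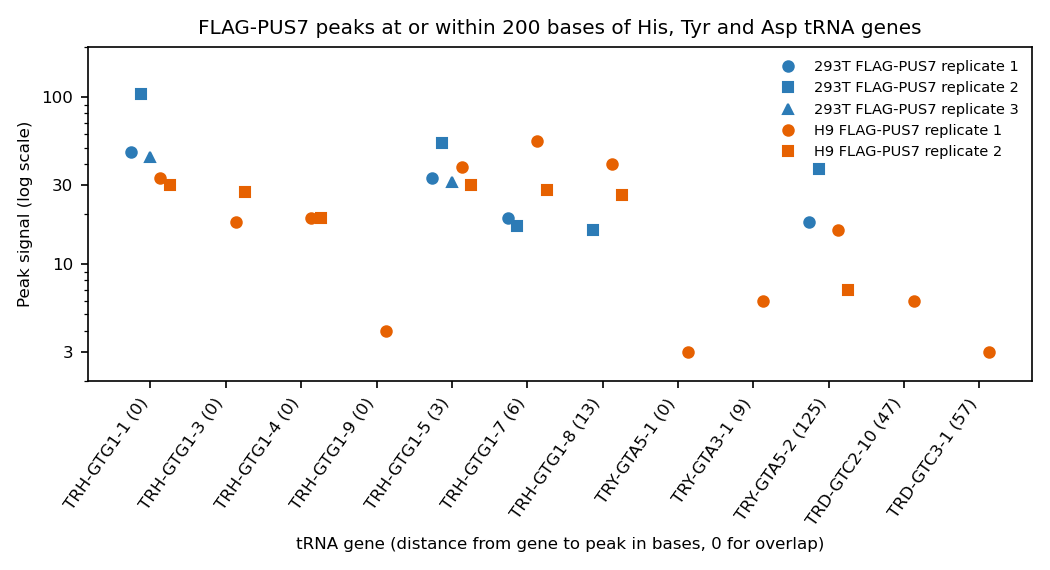
Signal (log scale, as the authors deposited it) of each FLAG-PUS7 peak that overlaps an Asp, His or Tyr tRNA gene or lies within 200 bases of one. Genes are on the horizontal axis with the distance from gene to peak in bases in brackets, blue symbols are 293T and orange symbols H9. TRH-GTG1-1 and TRH-GTG1-5 have a peak in all 5 libraries, and both Asp genes have one in H9 FLAG-PUS7 replicate 1 only.

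By count, 1, 1 and 1 of the 9 His genes shared at least 1 base with a peak in 293T, and 4 and 3 did in H9. Of the 13 Tyr genes 0, 0 and 0 did in 293T, and 1 and 0 in H9, and of the 13 Asp genes 0 did in every list. Of the 22 Asn genes 6, 7 and 3 did in 293T and 12 and 9 in H9. Of the 366 remaining tRNA genes of RefSeq 43, 33 and 14 did in 293T and 96 and 43 in H9. Within 200 bases of a peak were 3, 4 and 2 of the 9 His genes in 293T and 7 and 6 in H9, 1, 1 and 0 of the 13 Tyr genes in 293T and 3 and 1 in H9, and 0, 0 and 0 of the 13 Asp genes in 293T and 2 and 0 in H9. By that measure there were 7, 7 and 3 of the 22 Asn genes in 293T and 13 and 10 in H9, and 55, 42 and 19 of the 366 remaining genes in 293T and 117 and 55 in H9. No Asp gene thus lay under a FLAG-PUS7 peak in these lists, and in 293T no Tyr gene did either. The lists are marked as without tRNA, and a link between peaks and detection in the knockouts was not tested.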

How the data were processed

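The 10 libraries were grouped by line and genotype from the labels. The submitters' processing notes name hg38, Bowtie, SAMtools and bedtools, with no versions or roles. The authors deposited tRNA tables of level codes, of which only detection was read, and peak lists with a signal and a p-value per peak in the units of the deposited files. Counting rules for tRNA copies and the peak caller are not given in the sources used here. Depth is unknown, so that no interval or detection limit is given, and a row not detected may still have been bound. Each permutation p-value is the share of label assignments that gave a difference at least as large as the observed one. Whether replicates were grown apart is not stated, so that the p-values apply to these samples only.

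The isotypes, lists and tests were chosen with earlier results of these data known. Shares were computed with Python 3.11.15, NumPy 2.4.6 and pandas 2.3.3, exact permutation tests were adjusted by the Benjamini-Hochberg method at 0.05, and the script was tested on simulated data. Within 293T alone the smallest possible p is 0.1, and within H9 alone 0.333. Rows named are every family, those missing from a FLAG-PUS7 library, those in all 5 FLAG-PUS7 libraries and no knockout, those in every knockout with any tRNA row, and genes under a peak; the rows in 1 to 3 knockouts and peaks beside genes were named after their values were seen. Alternatives were single libraries left out, a replicate block, the rows counted, the weights, the detection threshold and the peak overlap. Sequences and the motif of PUS7 were not analysed here.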

Additional observations from a re-analysis of the deposited data

Results flagged for a closer look

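Rows named Tyr with an nm prefix were not among the 43 rows described, and some were detected. Of these 23 rows, 0, 1 and 1 were detected in 293T FLAG-PUS7 and 3 and 0 in H9 FLAG-PUS7, against 0, 1 and 1 in the 293T knockouts and 0 and 0 in the H9 knockouts. The 3 rows in H9 FLAG-PUS7 replicate 1 were the largest number in any library. The 16 of these rows with the anticodon GTA were 1 of the 57 families tested and did not pass (4.69 points, FLAG-PUS7 minus knockout, exact permutation test, adjusted p = 0.814).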

How the results depend on the processing

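Leaving out 1 library at a time gave differences of 9.38 to 53.1 points for Asp-GTC, 26.7 to 71.7 for His-GTG and 64.1 to 70.3 for Tyr-GTA, with 23 to 49 of 57 families passing. Between isotypes the ranges were 11.1 to 54.8 points for Tyr minus Asp, -7.45 to 37.5 for Tyr minus His and 13.8 to 23.8 for His minus Asp. Against the other rows they were -37.1 to -12.5 points for Asp, -19.8 to 6.07 for His and -1.38 to 17.7 for Tyr, and against Asn -33.5 to -7.59 for Asp, -16.2 to 10.95 for His and 3.50 to 21.4 for Tyr. The change in H9 minus that in 293T ranged over -6.25 to 81.2 points for Asp-GTC, -33.3 to 56.7 for His-GTG and 9.38 to 21.9 for Tyr-GTA. Between 7 and 11 single rows of the 3 isotypes had an unadjusted p under 0.05, 0 of the whole table passing in each case.

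Deviations of same-numbered libraries were hardly correlated, at -0.0245, 0.0369 and -0.00626 in 293T and 0.0341 in H9. With 2 libraries per group, both H9 replicates necessarily give the same value, and H9 knockout replicate 1 has no detected rows. The H9 value therefore cannot show whether replicate numbers pair the libraries. With the replicate block, which allows 32 assignments and no exact p below 0.0625, the differences of 31.2, 49.2 and 66.7 points had an adjusted p of 0.081 each and 0 families passed.

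Over rows matched to a RefSeq tRNA gene, Asp-GTC (25 points) and His-GTG (43.5 points) no longer passed. His turned to 0.891 points above Asn over numbered rows. It turned to 3.71 above the other rows and 11.9 above Asn when only levels above the lowest counted. Within the same width classes it turned to 6.40 and 13.6, and within the same classes and RefSeq genes together to 4.99 and 12.96. The cause was not tested. Genes with a peak within 200 bases were 4, 5 and 2 in 293T and 12 and 7 in H9, against 1, 1 and 1, and 5 and 3, that shared at least 1 base. Among the 366 tRNA genes of the remaining isotypes they were 55, 42 and 19 in 293T and 117 and 55 in H9. With the whole gene inside the peak there was 1 in each H9 list, and with an authors' p under 0.01 there were 3 in H9 FLAG-PUS7 replicate 1. The alternatives on the detection threshold for isotype comparisons, the wider peak distance and RefSeq genes with the same width classes, and width classes combined with leaving out H9 knockout replicate 1, were chosen after seeing the data. Counting identical gene sequences once was not run. Counting each sequence number once, added in its place, gave 41.7, 71.8 and 58.9 points for Asp-GTC, His-GTG and Tyr-GTA. These 3 values include H9 knockout replicate 1 and were not computed without it.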
